A study of Mus musculus with 3 samples.

Results

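Immediate early genes are transcribed within minutes of a stimulus, from factors already present in the cell. The 10 described here are Fos, Jun, Junb, Egr1, Egr2, Ier2, Atf3, Dusp1, Zfp36 and Nr4a1, chosen because growth factor signalling and tissue handling are both known to induce them. They were represented by the 12 probe sets whose platform annotation names exactly 1 of these symbols, among 18193 genes named that way on the array. Jun and Egr2 had a pair of probe sets each. Expression was measured on 1 array of 1 colour per mouse in total RNA of dorsal skin from female BALB/cA mice aged 4 days. The groups were 1 wild type mouse (uncv +/+) and 2 uncv null mice (uncv -/-, called null 1 and null 2 here), siblings from parents heterozygous for uncv, with no treatment named. Uncovered (uncv) is a spontaneous hair loss mutation, later mapped to Rhbdf2, which encodes iRhom2, a partner of the protease that releases ligands of the epidermal growth factor receptor. The mutation is carried by all cells of the animal, whole skin mixes many cell types, and a single wild type mouse gives that group no spread of its own.

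Growth factor receptors, stretch and cell stress activate the ERK, JNK and p38 kinases. These phosphorylate factors bound at serum response elements (CArG boxes) and cyclic AMP response elements (CRE), and transcription of immediate early genes starts without new protein synthesis. FOS pairs with JUN or JUNB to form AP-1, a transcription factor that acts on many keratinocyte genes, while EGR1 and EGR2 are zinc finger factors and NR4A1 is an orphan nuclear receptor. DUSP1 removes phosphate from the kinases and ZFP36 speeds the decay of AU-rich mRNAs, so both end the response. In skin these transcripts also respond to wounding and to dissection.

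The promoters of 5 of these genes are shown because they carry the elements through which such signals are known to act. Each is the 250 bases before the RefSeq start in GRCm38.p6, 5′ to 3′ on the strand of the gene. They lie at chr12:85473640-85473889 (plus strand) for Fos, chr15:101266596-101266845 (plus strand) for Nr4a1, chr7:28379229-28379478 (minus strand) for Zfp36, chr17:26508473-26508722 (minus strand) for Dusp1 and chr10:67537619-67537868 (plus strand) for Egr2. Capitals mark CArG boxes, EGR sites (GCGNGGGCG), CRE cores (TGACG), the whole CRE (TGACGTCA) and the TATA box (TATAAA), searched on both strands. A whole CRE contains the core.
Fos: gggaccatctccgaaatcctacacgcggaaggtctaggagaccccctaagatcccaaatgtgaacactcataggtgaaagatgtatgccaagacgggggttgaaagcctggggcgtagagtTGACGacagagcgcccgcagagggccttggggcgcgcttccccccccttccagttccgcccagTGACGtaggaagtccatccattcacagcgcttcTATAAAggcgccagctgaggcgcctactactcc
Nr4a1: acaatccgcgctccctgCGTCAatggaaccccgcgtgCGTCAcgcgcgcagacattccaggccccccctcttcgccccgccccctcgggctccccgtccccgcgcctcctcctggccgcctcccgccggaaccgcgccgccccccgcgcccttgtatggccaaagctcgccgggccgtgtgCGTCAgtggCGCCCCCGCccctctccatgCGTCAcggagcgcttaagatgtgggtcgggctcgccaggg
Zfp36: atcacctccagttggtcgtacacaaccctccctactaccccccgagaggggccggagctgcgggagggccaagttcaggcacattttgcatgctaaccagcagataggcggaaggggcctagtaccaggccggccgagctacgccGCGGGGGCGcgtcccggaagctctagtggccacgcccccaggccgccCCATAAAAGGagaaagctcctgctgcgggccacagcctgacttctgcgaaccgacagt
Dusp1: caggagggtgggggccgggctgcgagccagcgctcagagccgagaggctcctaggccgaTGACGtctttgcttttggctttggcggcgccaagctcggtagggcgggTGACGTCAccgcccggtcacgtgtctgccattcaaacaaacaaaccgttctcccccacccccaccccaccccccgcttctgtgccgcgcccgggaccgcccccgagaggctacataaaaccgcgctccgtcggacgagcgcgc
Egr2: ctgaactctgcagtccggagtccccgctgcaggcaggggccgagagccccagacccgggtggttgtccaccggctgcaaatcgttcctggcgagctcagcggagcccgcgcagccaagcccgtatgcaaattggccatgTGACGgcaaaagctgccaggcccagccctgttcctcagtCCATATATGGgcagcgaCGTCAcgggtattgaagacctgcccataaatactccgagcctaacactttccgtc

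The promoter table held 8 of the 10 genes and lacked Egr1 and Ier2. A CRE core lay in 6 of these 8 genes (Fos, Junb, Egr2, Atf3, Dusp1 and Nr4a1) and in 19.8% of all 27025 genes with a promoter. Nr4a1 held 4 of them, all in the reverse orientation. The whole CRE was found in Dusp1 alone among the 8, at 143 bases before its start, and in 1.77% of all genes. A CArG box lay in Zfp36, at 58 bases before the start, and in Egr2, at 72 bases before the start of the window shown, against 1.62% of all genes. EGR sites were found in Zfp36 and Nr4a1, against 5.33% of all genes. The AP-1 site (TGANTCA) was in 0 of the 8 windows, against 7.82% of all genes, and the Sp1 site (GGGCGG) in 7 of the 8, against 35.4%. Egr2 has 5 annotated windows, and the one shown was picked because it holds both a CArG box and a CRE core. A gene was counted once if any of its windows held the letters. These matches describe the windows searched and say nothing of use in skin.

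Most of these genes lay somewhat higher in both null mice than in the wild type mouse, with mean differences under 2-fold, and none passed the test. All values are log2 expression values made by RMA, where 1 unit is 2-fold, and differences are uncv null minus wild type. Of the 10 genes, 9 passed the filter on dim probe sets (a mean of at least 5 over the 3 arrays); Atf3 did not. By the brighter probe set of each gene, 7 of these 9 exceeded wild type in both null arrays, as did 38.8% of the 8456 tested genes. None of the 9 was below in both, where 26.4% of tested genes were. The 2 others, Jun and Junb, were below wild type in null 1 and above it in null 2. Both differences of a gene share the single wild type array, so they do not count as separate observations of the wild type level.

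The median difference of the 9 genes was 0.45, with 0.38 in null 1 and 0.56 in null 2. Over all tested genes the medians were 0.036, 0.025 and 0.066. In limma 0 of the 9 passed an adjusted p of 0.05 (all at adjusted p = 0.9996), and so did 0% of all tested genes. At an unadjusted p under 0.05, limma called 1 of the 9, Egr1, and 2.9% of all tested genes. At least 2-fold above wild type in both arrays stood 0 of the 9 and 0.225% of all tested genes. The spread behind these tests has 1 residual degree of freedom, from the null arrays, and 4.75 prior ones, pooled over all tested probe sets. An exact permutation of 1 against 2 arrays cannot give a p below 0.333.

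**Figure D1:**
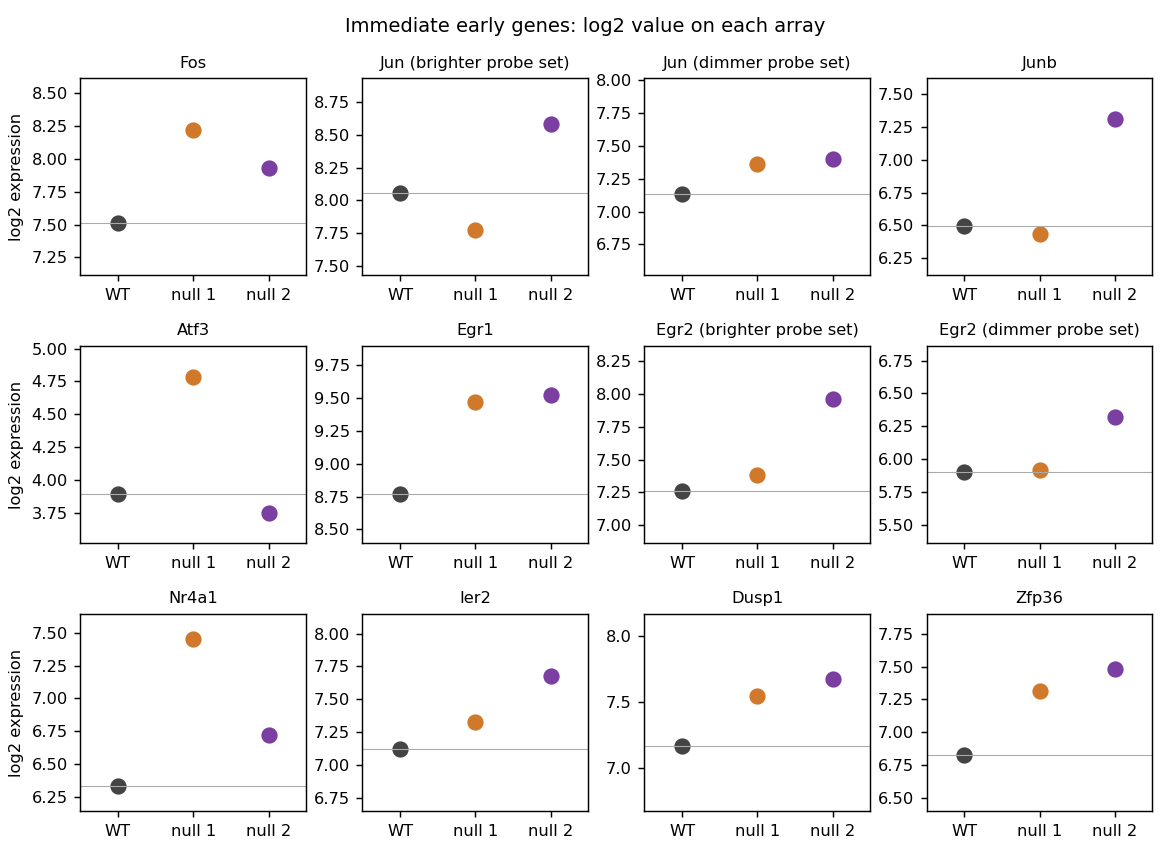
Log2 expression value (vertical axis) of each of the 12 probe sets on the wild type, null 1 and null 2 arrays, 1 point per array, with a grey line at the wild type value and the same vertical span of log2 units in every panel. Egr1 shows the null points close together at 9.47 and 9.53 above wild type at 8.77, while Junb has wild type and null 1 together at 6.50 and 6.43 and null 2 apart at 7.31.

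Among the AP-1 subunits, Fos exceeded wild type in both null mice, whereas Jun and Junb did so in null 2 alone. Fos, the subunit that binds DNA only when paired with a JUN protein, read 7.51 in wild type, 8.22 in null 1 and 7.93 in null 2. The wild type value was the lowest, and null 1 was the highest. The difference was 0.56 ± 0.28 (± gives the moderated SE from limma, here and below), or 1.48-fold, with a 95% interval from -0.12 to 1.25 (limma unadjusted p = 0.090, adjusted p = 0.9996). Of all tested genes, 4.04% had a larger mean difference.

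Jun, which can pair with itself or with FOS, read 8.06 in wild type, 7.77 in null 1 and 8.59 in null 2 by its brighter probe set. The wild type value lay between the null values, which were 0.81 apart, and the mean difference was 0.12 ± 0.39. Its dimmer probe set gave 7.13, 7.37 and 7.40, so here both null arrays were above wild type. The probe sets of Jun therefore disagree on the sign in null 1. Junb, a JUN relative with a large role in restraining keratinocyte cytokine output, had 6.50, 6.43 and 7.31. Wild type and null 1 were nearly level and null 2 stood apart, at 0.37 ± 0.41 on average. The gap between the null arrays, 0.88, exceeded that mean.

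Atf3, a stress-induced partner of JUN that mostly represses, read 3.89 in wild type, 4.79 in null 1 and 3.75 in null 2. The wild type and null 2 values were close to the medians of all probe sets on their arrays, 3.70 and 3.65, so neither was clearly above background and no fold is given. Only null 1 stood higher. With no filter on dim probe sets it would enter as a gene of mixed sign.

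The zinc finger and nuclear receptor genes held the members with the largest mean differences, Nr4a1 and Egr1. Egr1, which responds to ERK signalling and to wounding, read 8.77 in wild type, 9.47 in null 1 and 9.53 in null 2. The null arrays were 0.05 apart and both lay above wild type. The difference was 0.73 ± 0.26, or 1.66-fold, with a 95% interval from 0.10 to 1.37 (limma unadjusted p = 0.031, adjusted p = 0.9996). Only 1.81% of tested genes had a larger mean difference.

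Egr2, a relative of Egr1 known from Schwann cells and the hair follicle, read 7.26, 7.38 and 7.96 by its brighter probe set. Wild type and null 1 were close and null 2 was higher, so the difference of 0.41 ± 0.33 came mostly from 1 array. The dimmer probe set showed the same order, at 5.90, 5.91 and 6.32. Nr4a1, a nuclear receptor that acts without a known bound hormone, had 6.33, 7.46 and 6.72. Here null 1 was the highest, by 0.74 over null 2, and it was the only value of a tested member at least 2-fold from wild type. The mean difference was 0.76 ± 0.37, or 1.69-fold (95% interval from -0.15 to 1.67, limma adjusted p = 0.9996).

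The feedback genes and Ier2 shared one order, with wild type lowest and null 2 highest, which Egr1 and Egr2 had too. Zfp36, whose product (tristetraprolin) binds AU-rich elements of mRNAs such as those of cytokines and of Fos itself, read 6.82 in wild type, 7.31 in null 1 and 7.48 in null 2. The null values lay within 0.17 of each other. The difference was 0.57 ± 0.26, or 1.49-fold (95% interval from -0.08 to 1.22, limma unadjusted p = 0.075, adjusted p = 0.9996). Dusp1, the nuclear phosphatase of p38, JNK and ERK, had 7.16, 7.55 and 7.68. Both null arrays were again close to each other and above wild type, at 0.45 ± 0.26. Ier2, a nuclear protein of the early growth factor response, had 7.12, 7.33 and 7.68, at 0.38 ± 0.29. The gap between its null arrays, 0.35, was nearly as large as that difference.

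Across the 9 tested genes the uncv null mice therefore did not share one ranking. In 7 of them null 2 was the highest array, and in the other 2, Fos and Nr4a1, it was null 1. For 3 genes, Jun, Junb and Egr2, the gap between the null arrays was at least as large as the mean difference from wild type. Egr1, Dusp1 and Zfp36 had the smallest gaps, at 0.05, 0.13 and 0.17.

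**Figure D2:**
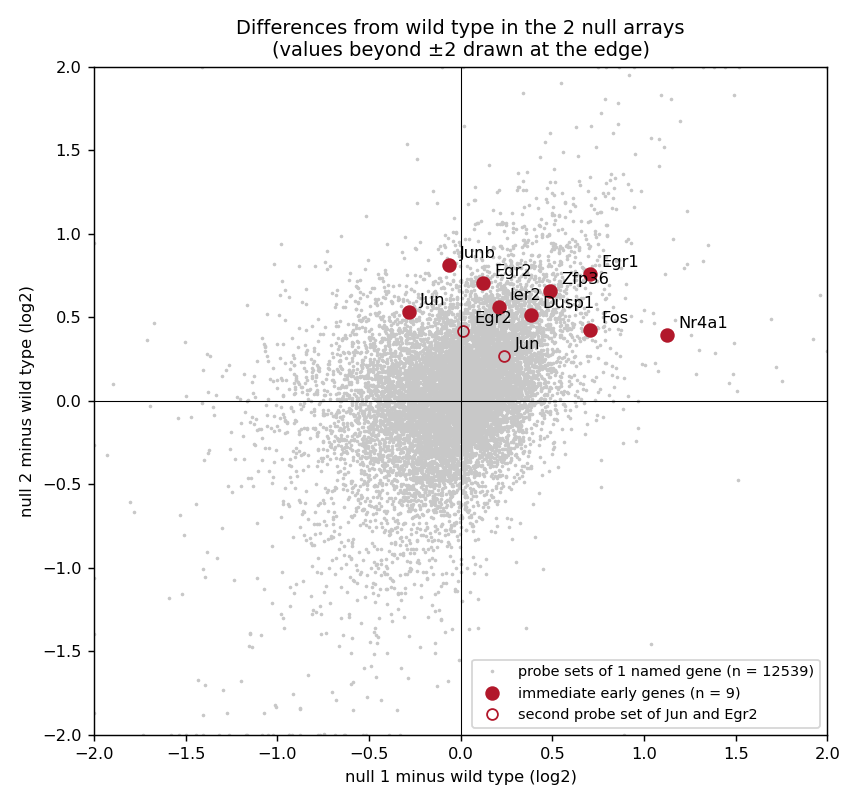
Difference from wild type in null 1 (horizontal axis, log2) and null 2 (vertical axis, log2) for 12539 probe sets of 1 named gene (grey) and the 9 tested immediate early genes (filled red), with the second probe sets of Jun and Egr2 as open circles; both axes share the wild type array, and 52 probe sets beyond 2 units are drawn at the edge. Of the filled points, 7 are right of and above 0, with Nr4a1 farthest right at 1.13 and Junb highest at 0.81.

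Other genes of the same response were taken from lists, and all were measured in the same fit. The 25 tested genes of a list of other immediate early genes had a median difference of 0.31, with 0.30 in null 1 and 0.26 in null 2. Of these, 16 (64%) lay above wild type in both arrays and 3 below, against 38.8% and 26.4% of all tested genes. Of these 16, 4 (Cebpd, Nfkbiz, Trib1 and Gadd45g) read under 5 in wild type and passed the filter only through the null arrays, so the mean of their null arrays had to be above wild type, and the count of 16 is given as a description. Cebpd, a C/EBP factor of acute inflammation, read 4.99 in wild type, 6.27 in null 1 and 5.15 in null 2, so its lead came from 1 array. Ccn1, a secreted matrix protein formerly called Cyr61, had 5.64, 6.45 and 6.07, and its other tested probe set had a smaller mean difference, 0.34 against 0.62. Nfkbiz, a nuclear cofactor of NF-κB, had 4.78, 5.45 and 5.28. Both of these last genes had the wild type array lowest. Limma called 0 of the 25 (0% of all tested genes), and 0 had an unadjusted p under 0.05 (2.9% of all tested genes).

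Family relatives of the members, bZIP partners and corepressors had mixed signs. Of 7 tested AP-1 and bZIP partners, 2 were above wild type in both arrays and 4 below (38.8% and 26.4% of all tested genes). Their median was -0.05 (0.027 with no filter on dim probe sets). Fosl2, a FOS relative, was 7.93 in wild type, 8.40 in null 1 and 8.11 in null 2. Mafk, a small MAF protein, had differences of 0.43 and 0.16, and Atf2, a JUN partner activated by p38 and JNK, of -0.08 and -0.32. Fosb and Fosl1, also FOS relatives, had a mean below 5 and were not tested. Of 3 tested genes among the other Egr and Nr4a relatives and the Nab corepressors, 0 were above in both (38.8% of all tested genes). Egr3 had 9.61, 9.56 and 9.19, the reverse of the order seen for Egr2, and the corepressors Nab1 and Nab2 had mean differences of -0.04 and -0.0026. Nr4a2 and Nr4a3 were not tested, with means below 5.

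Among feedback phosphatases, Sprouty and Spred inhibitors and Zfp36 paralogs, 5 of 13 lay above wild type in both arrays (38.5%, against 38.8% of tested genes). In both arrays 1 lay below, against 26.4% of tested genes. The list median was 0.13 (0.038 at a minimum mean of 7, 0.196 with no filter, 0.199 without null 1 and 0.198 without null 2). Dusp2, a nuclear phosphatase of ERK and p38 known from activated immune cells, read 5.68 in wild type, 6.47 in null 1 and 6.98 in null 2. Its difference of 1.05 ± 0.32 was larger than that of any of the 9 members and had an unadjusted limma p of 0.017 (adjusted p = 0.9996). Dusp10, a phosphatase of p38 and JNK, differed by 0.53 and 0.76 from a wild type value of 4.58, so it too passed the filter only through the null arrays. Dusp7, which acts on ERK, differed by 0.47 and 0.57, while its other probe sets gave 0.23 and 0.69, and -0.09 and 0.81. The ERK-induced Dusp6 was at -0.14 in null 1 and 0.66 in null 2, so its sign was mixed.

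Upstream kinases and SRF factors had a median of 0.17 (-0.0040 when the probe sets of each gene were averaged), and 15 of 24 (62.5%) were above wild type in both arrays, with 4 below (38.8% and 26.4% of all tested genes). Srf, the factor that binds CArG boxes, read 6.55, 7.09 and 7.001, and its coactivator Mrtfa 5.30, 5.83 and 5.56. The other tested probe set of Srf had a smaller mean difference, 0.28 against 0.50. Wild type was the lowest array for both. Elk3, an SRF partner that can repress, had 7.27, 7.10 and 6.80, with wild type the highest. Heat shock genes, which respond to heat and protein damage, had a median of -0.0030 over 12 genes, with 3 above in both arrays and 3 below. Hspa8, a constitutive chaperone, differed by -0.44 and -0.17, Hsp90aa1 by -0.16 and -0.39, and the cochaperone Dnajb1 by 0.21 and 0.31. The other probe set of Dnajb1 gave -0.30 and 0.34, so its sign in null 1 is not settled. Other probe sets of Hspa8 gave -0.54 and -0.58, and 0.07 and -0.17. The probe sets read for Ccn1, Atf2, Dusp7, Srf and Hspa8, like those of Clu, H2-Aa, Krt14 and Lor among the genes that follow, carry a suffix that marks possible matches to related transcripts, so their values are uncertain. Limma called 0 genes in any of these lists.

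**Figure D3:**
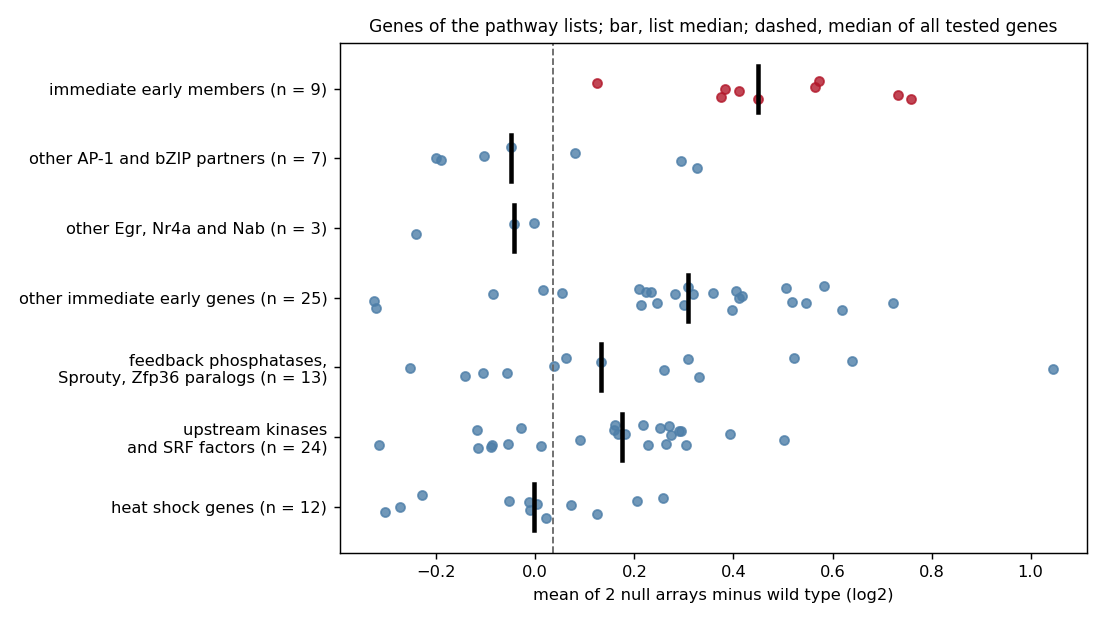
Mean of the 2 null arrays minus wild type (horizontal axis, log2) for each tested gene of 7 lists (rows), 1 point per gene with small vertical jitter, a black bar at the list median and a dashed line at 0.036, the median of all tested genes. The immediate early members (red) lie between 0.12 and 0.76 with a median of 0.45, other immediate early genes have a median of 0.31, and heat shock genes lie around 0.

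The genes whose pair of differences lay nearest to the members' median pair (0.38 in null 1, 0.56 in null 2) were Zfp597, Borcs6, Clu, H2-Aa and Col4a1. Likeness was the Euclidean distance over these differences, from 3 arrays. Zfp597 read 4.89 in wild type, 5.27 in null 1 and 5.45 in null 2. It passed the filter only through the null arrays, so its mean null value had to be above wild type. Clu, which encodes the chaperone clusterin, read 8.70, 9.09 and 9.25. Col4a1, a basement membrane collagen chain, had 10.02, 10.4 and 10.6, and H2-Aa, a class II antigen presentation gene, had 6.46, 6.83 and 7.01. As near as the median member were 1308 of 8320 other named genes (15.7%), so a pair of differences this near was not particular to the members. The median member lay 0.35 from the median pair, and the share depends on that distance, which the members' own scatter sets.

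Control probe sets differed between the arrays too, in both directions. The 18 hybridisation spike-ins, bacterial and phage transcripts added in fixed amounts, lay above wild type by a mean of 0.70 in null 1 and 0.43 in null 2. In the range of wild type values that the 9 members span, from 6.33 to 8.77, lay 5 of these probe sets. They read only bioC and bioD, at 0.66 to 0.86 in null 1 and 0.32 to 0.73 in null 2. The members' own differences ran from -0.28 to 1.13 and from 0.39 to 0.81, so the ranges overlapped. In null 1, however, 6 of the 9 members lay below the lowest of these 5 probe sets. Their mean of 0.76 exceeded the members' median of 0.38. In null 2, 0 of the 9 lay below the lowest spike-in, and the spike-in mean was 0.51 against a median of 0.56. Other controls went the other way in null 1: the Actb and Gapdh controls were at -0.59 and -0.39 there, and at -0.02 and -0.0088 in null 2. The poly(A) spike-ins, bacterial transcripts with a tail, were at -0.74, -0.42 and -0.05 in null 1 by their 5′, middle and 3′ probe sets, and at 0.26, 0.18 and 0.23 in null 2. The 3560 tested genes within the members' range of mean levels had medians of 0.03 and 0.08. The part of the spike-in offset in the members' values was not tested.

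**Figure D4:**
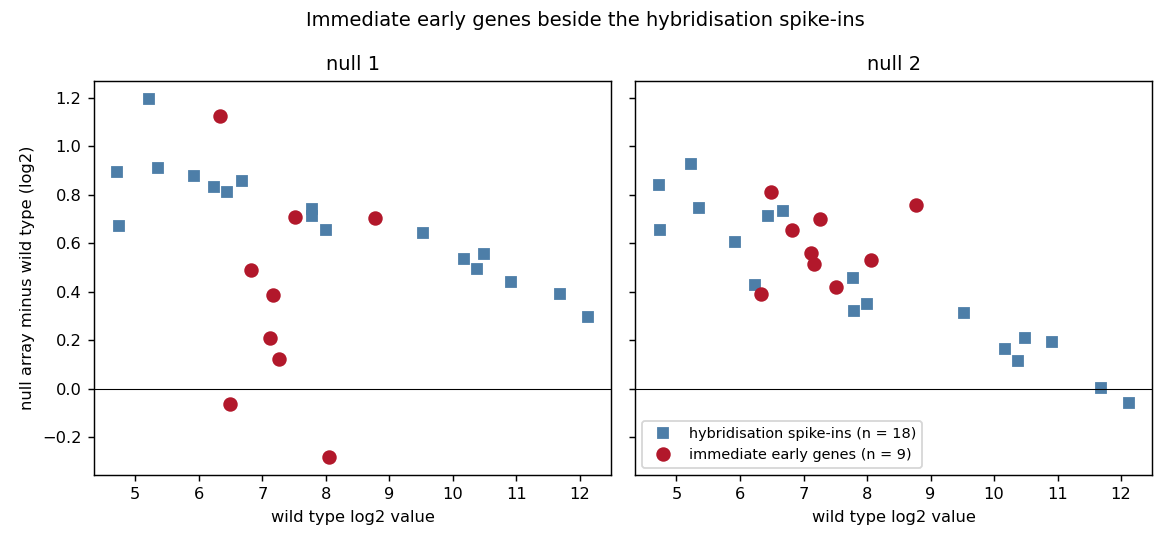
Difference from wild type (vertical axis, log2) against the wild type log2 value (horizontal axis) for the 9 tested immediate early genes (red circles) and the 18 hybridisation spike-in probe sets (blue squares), with null 1 on the left and null 2 on the right. All 18 spike-in probe sets lie above 0 in null 1, their offset shrinks toward bright values, and the members overlap them in both panels.

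Controls for ribosomal RNA and for the ends of the Actb transcript also differed. The 18S ribosomal RNA controls had a mean of 3.59 in wild type, 7.93 in null 1 and 4.26 in null 2, and the Actb control's 3′ probe set exceeded its 5′ one by 0.66, 1.23 and 0.79. On both measures null 1 stood apart. Of the 9 tested members, 2 (Fos and Nr4a1) were highest in null 1 and 7 in null 2. The untested Atf3 was highest in null 1. The poly(A) spike-ins, which do not come from the mouse RNA, were also lower by 5′ than by 3′ probe sets in null 1, at -0.74 and -0.05. In null 2 alone, 9 of the 9 tested members were above wild type, against 58.8% of all tested genes. In null 1 alone the count was 7, against 53.5%. The part of RNA quality or of labelling in the members' values was not tested. Rhbdf2 itself read 5.83, 6.29 and 6.49, and whether its probe set lies where the mutation does was not examined, so it checks no label.

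The skin label was checked on the keratinocyte markers Krt5, Krt14, Krt1, Krt10, Lor and Trp63, which were all present and whose mean level was 11.6, 11.6 and 11.8 in wild type, null 1 and null 2. All 7 skeletal muscle markers were below wild type in both null arrays, with mean levels of 10.3, 9.38 and 8.68. Of all tested genes, 26.4% were below in both. Actc1, Myh3 and Tnni1, of embryonic, cardiac or slow muscle, were at -2.08, -2.03 and -2.00. All 6 fibroblast markers were also below, with mean levels of 11.4, 11.3 and 10.9, led by Col1a1, Lum and Dcn at -0.40, -0.36 and -0.35. Both tested adipocyte markers, Adipoq at 0.67 and Fabp4 at 0.13, were above in both, as were 38.8% of all tested genes. The adipocyte mean level was 10.4, 10.7 and 10.9. In whole skin, fewer cells of a type and less RNA per cell cannot be told apart.

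Other markers were less even. Of the 4 macrophage markers 2 were above in both arrays (C1qa at 0.27 and Adgre1 at 0.14), against 38.8% of all tested genes. Csf1r was at -0.07. Of the 4 endothelial markers 1, Tek at -0.77, was below in both, against 26.4% of all tested genes. Kdr at -0.15 and Cdh5 at 0.09 were mixed. All 4 melanocyte markers, among them Pmel, Dct and Tyrp1, were mixed in sign. Alas2, the 1 red cell marker tested, was at -0.92. The 3 neutrophil and 3 T cell markers with a probe set had means below 5 and were not tested. Limma called 0 of these markers at the adjusted threshold, and their part in the members' differences was not tested.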

How the data were processed

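Total RNA of 3 skin samples was labelled with biotin and hybridised to 1 array each. The authors deposited log2 values made with RMA, per the submitters' processing notes. The RMA software, its version and its model of background are not given in the sources read. RMA corrects background, normalizes between arrays and summarises probes, so a change in all transcripts alike would be hidden. Detection calls and scanner files were not used here, and the number of arrays limits the precision.

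The table held 45101 probe sets, of which 64 were controls. Of the other 45037, 34945 had 1 gene symbol in the platform annotation, 932 had several and 9160 had none. Probe sets with a mean of at least 5 were tested, 13559 in all, in R 4.3.3 using limma 3.58.1 (eBayes after lmFit, 4.75 prior degrees of freedom, Benjamini-Hochberg over all tested probe sets). The fit lends the spread of the null arrays to the wild type array. Each gene was read from its probe set with the highest mean, which gave 8456 tested genes. P-values rest on the spread between the 2 null arrays, moderated toward a spread pooled over all tested probe sets. With 4.75 prior against 1 residual degree of freedom, the pooled part weighs more. They hold no spread between wild type mice.

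All 10 members are named, with the 3 tested genes of largest absolute difference in each list and the 5 genes nearest to the members' median pair. Dusp6, Fosb, Fosl1, Nr4a2 and Nr4a3 were added after their values were seen. The members and lists were chosen with earlier results of these data known. Promoters are RefSeq's (GRCm38.p6). Alternatives are given in the closing section.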

Additional observations from a re-analysis of the deposited data

Results flagged for a closer look

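Some control probe sets outside the comparison carried signal above the wild type level. The 18S ribosomal RNA probe sets averaged 7.93 in null 1 and 4.26 in null 2, against 3.59 in wild type. The hybridisation spike-ins lay above wild type by a mean of 0.70 in null 1 and 0.43 in null 2. The Actb and Gapdh controls and the poly(A) spike-ins lay below wild type in null 1, by means from -0.74 to -0.05. No explanation was tested for any of them.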

How the results depend on the processing

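Across the filters, normalizations and variance models run, limma called 0 probe sets and 0 members, and with the other probe set rules it called 0 members. The filters, normalizations and probe set rules kept the sign of the mean difference of every member they tested. They left 7 members above wild type in both null arrays, or 6 of the 7 measured at a minimum mean of 7, with a median between 0.41 and 0.45. Without null 2, Jun turned to -0.28 and Junb to -0.06 (0.53 and 0.81 without null 1), and 1 member, Nr4a1, was past 2-fold, so that count ran from 0 to 1 when 1 array was left out. No paired analysis was possible because the labels give the wild type array no number.

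List medians depended more on the processing. For the AP-1 and bZIP partners the median was 0.027 with no filter, 0.016 at a minimum mean of 7, -0.077 with centring, -0.064 with quantile normalization, -0.066 with cyclic loess, -0.076 with the mean of probe sets and -0.10 with the most variable probe set, so it has no settled sign. For the feedback list it was, in the same order and without the last, 0.196, 0.038, 0.105, 0.089, 0.092 and 0.093. For the upstream list it was 0.167 at a minimum mean of 7, 0.147 with centring, 0.160 with quantile normalization, 0.147 with cyclic loess, -0.0040 with the mean of probe sets and 0.189 with the most variable probe set. For other immediate early genes it was 0.240 at a minimum mean of 7, 0.271 with cyclic loess and 0.358 with the most variable probe set. For heat shock genes it was -0.030 with centring, -0.059 with the mean of probe sets and -0.12 with the most variable probe set. For the Egr, Nr4a and Nab list it was -0.143 at a minimum mean of 7. The cause was not tested.

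With 1 null array left out, the medians ran from 0.161 to 0.168 for the upstream list, from 0.198 to 0.199 for the feedback list, from 0.257 to 0.304 for other immediate early genes and from -0.157 to -0.059 for the Egr, Nr4a and Nab list. With 3 arrays, 1 of them wild type, differences of this size cannot be separated from variation between mice.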
